A study of Mus musculus with 4 samples.

Results

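The Th1 programme and its IL-12 and IL-18 receptors were followed through 10 genes chosen by name, which were *Il12rb1*, *Il12rb2*, *Il18r1*, *Il18rap*, *Stat4*, *Tbx21*, *Eomes*, *Runx3*, *Hlx* and *Ifng*. All 10 were among the 24369 genes listed for each library, and all 10 were among the 14143 genes with enough counts to be tested. The libraries came from naïve CD4 T cells of WT C57BL/6 mouse spleen that had been activated with anti-CD3, anti-CD28 and IL-2, without polarizing cytokines. On day 2 the cells received an MSCV retrovirus carrying GFP alone (EV RV, 2 libraries) or GFP with Tox (Tox RV, 2 libraries), and on day 5 they were restimulated through the TCR for 5 h and sorted for GFP. Both groups therefore shared the activation, the viral backbone and the restimulation, and each group represented 2 mice. In Tox RV cells the added Tox was driven by the virus and not by its own promoter. The age of the mice is not given in the sources used here.

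In Th1 differentiation, IL-12 binds a receptor made of IL-12Rβ1 and IL-12Rβ2 and activates STAT4, while the TCR and IFN-γ induce T-bet. T-bet and STAT4 then act together on *Ifng* and on *Il12rb2* itself, and IL-18, through IL-18Rα and its accessory chain, adds to IFN-γ production. IL-12Rβ2 and IL-18Rα are the chains through which a Th1 cell becomes responsive to these cytokines.

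The total of expected counts, which estimate how many fragments came from each gene, ranged from 46989997 to 74548723 per library. *Tox* itself measured 11.7 then 5.73 CPM with EV RV against 121 then 99.9 CPM with Tox RV, where CPM is the count per 1000000 counts after scaling by edgeR's TMM method. Values of a group are always given for replicate 1 and then for replicate 2. EV RV replicate 1 stood apart from the other 3 libraries, at -53.8 on the first principal component against 5.70 to 25.8, and 24.7% of its counts came from the 45S pre-rRNA *Rn45s* against 7.14% to 11.97% in the others. Of the CD4 T cell markers, *Cd3d*, *Cd3e*, *Cd3g*, *Cd4*, *Cd28* and *Cd5* were all present, with a summed level of 1359 to 1954 CPM. The CD8 T cell markers *Cd8a* and *Cd8b1* summed to 3.88 to 4.77 CPM. Of the markers of NK cells and innate lymphoid cells, *Ncr1* and *Klra8* had 0 counts in every library, but others were present. *Klrk1* measured 36.6 then 10.5 CPM with EV RV against 17.2 then 4.86 CPM with Tox RV. *Klrd1* measured 14.2 then 1.90 CPM with EV RV against 10.2 then 1.99 CPM with Tox RV.

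The promoter sequences of *Il12rb2*, *Il18rap* and *Ifng* are shown because the results turn on how one chain of each receptor stood against its partner and against the cytokine that both receptors induce. Each is the 250 bases before the start of the RefSeq transcript, from RefSeq on build GRCm38.p6, written 5′ to 3′ on the strand of the gene. An entry was found for 9 of the 10 genes, the exception being *Il12rb1*. Capitals mark matches on either strand to the AP-1 site TGANTCA, the T-box core TCACAC, the RUNX site TGTGGT, the STAT (GAS) site TTCNNNGAA and the tandem IRF site, which is a pair of GAAA on the same strand with 2 bases between them. The window of *Il18r1* is not shown, since it runs into the 3′ end of the neighbouring gene *Il1rl1*.
Il12rb2 (chr6:67376189-67376438, minus strand): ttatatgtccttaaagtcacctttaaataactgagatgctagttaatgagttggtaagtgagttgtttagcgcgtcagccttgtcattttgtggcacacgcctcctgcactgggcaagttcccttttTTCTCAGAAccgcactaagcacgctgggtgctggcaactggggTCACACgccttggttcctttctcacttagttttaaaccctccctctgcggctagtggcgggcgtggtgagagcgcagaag
Il18rap (chr1:40515112-40515361, plus strand): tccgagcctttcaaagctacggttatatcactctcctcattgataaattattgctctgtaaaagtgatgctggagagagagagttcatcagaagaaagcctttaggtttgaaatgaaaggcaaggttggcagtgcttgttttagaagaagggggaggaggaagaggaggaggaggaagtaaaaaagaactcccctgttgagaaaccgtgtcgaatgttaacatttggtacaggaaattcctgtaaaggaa
Ifng (chr10:118440796-118441045, plus strand): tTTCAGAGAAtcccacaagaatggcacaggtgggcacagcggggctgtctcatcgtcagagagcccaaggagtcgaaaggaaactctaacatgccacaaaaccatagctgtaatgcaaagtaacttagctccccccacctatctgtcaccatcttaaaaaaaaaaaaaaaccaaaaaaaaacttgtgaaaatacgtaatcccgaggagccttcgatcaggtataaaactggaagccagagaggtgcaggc

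The *Il12rb2* sequence held a GAS match from base -123 to -115 and a T-box core from -80 to -75, counted from the start, whereas the windows of *Il18r1* and *Il18rap* held none of the 5 motifs. The *Ifng* sequence held a GAS match from -249 to -241. Among the other members, *Runx3* held a pair of RUNX matches, *Stat4* and *Eomes* held a tandem IRF match each, and *Tbx21* and *Hlx* held none. The window used for *Hlx* ran 126 bases past the start of its quantified transcript, so it was not wholly upstream. Over 32817 promoters of the same length, 7.01% held the GAS site, 12.3% the T-box core, 14.0% the RUNX site, 6.75% the AP-1 site and 2.97% the tandem IRF site. These matches describe letters in a window and not bound sites.

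Compared per transcript length as TPM (transcripts per 1000000), the 10 genes spanned the range from well expressed to barely detected. In EV RV cells *Il12rb2* had the highest mean level, at 202 ± 87.5 TPM (SD, n = 2), followed by *Stat4* at 116 ± 20.5, *Il12rb1* at 115 ± 14.2, *Ifng* at 88.6 ± 101 and *Tbx21* at 81.6 ± 18.9 TPM (SD, n = 2 each). *Eomes*, at 42.8 ± 7.74 TPM, and *Runx3*, at 39.7 ± 26.3 TPM (SD, n = 2 each), came next. *Il18rap* and *Il18r1* were lower, at 13.3 ± 3.79 and 12.8 ± 4.82 TPM (SD, n = 2 each), and *Hlx*, a homeobox factor that acts with T-bet in Th1 cells, stayed below 1 TPM in each library. The ranges of mean ± SD of neighbours in this order overlapped except between *Tbx21* and *Eomes* and between *Il18r1* and *Hlx*. In Tox RV cells the order changed at the top. *Il12rb1* had the highest mean level, at 123 ± 13.4 TPM, followed by *Ifng* and *Stat4*, and *Il12rb2*, at 72.3 ± 14.6 TPM, was level with *Tbx21*, at 72.6 ± 2.32 TPM (SD, n = 2 each). From *Eomes* downward the order was the one found in EV RV cells, with *Eomes* at 30.8 ± 0.269 TPM and *Il18r1* at 6.82 ± 0.735 TPM (SD, n = 2 each).

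**Figure D1:**
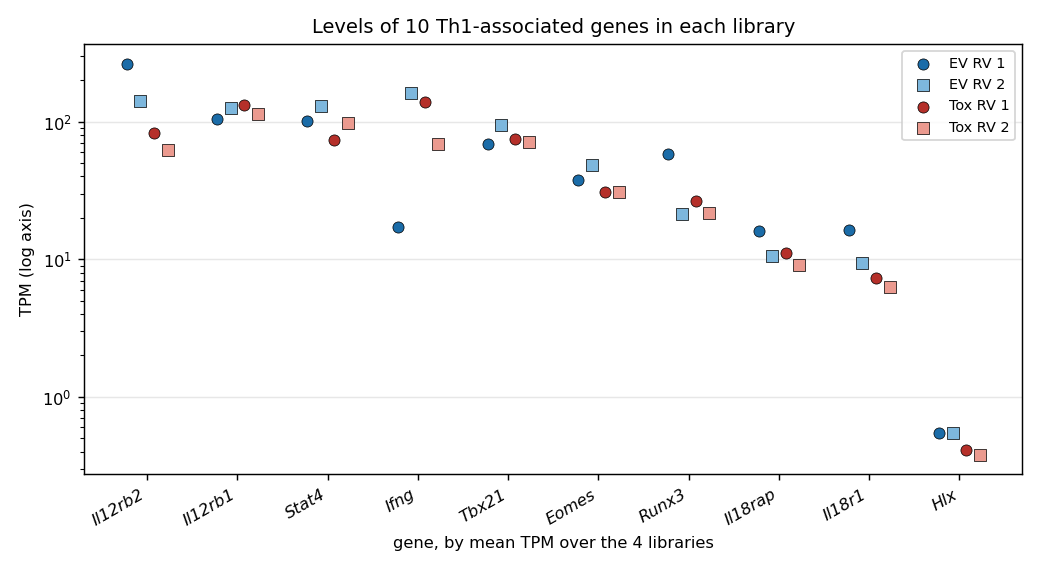
Level of each of the 10 genes in each library, in TPM on a log axis, with genes ordered by their mean over the 4 libraries. Both Tox RV points sit below both EV RV points for *Il12rb2*, *Stat4*, *Eomes*, *Il18r1* and *Hlx*, though for *Stat4* the groups overlap in CPM. EV RV replicate 1 sits apart for *Ifng* (17.2 TPM) and *Runx3* (58.3 TPM).

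Tox RV and EV RV cells were then compared for each gene by edgeR's quasi-likelihood test over all 14143 genes. The number of members past an adjusted p-value of 0.05 was 0, as was the number of all genes (0.00%), and the lowest adjusted p-value of any gene was 0.490. At an unadjusted p-value below 0.05, *Il12rb2* and *Il18r1* were both lower in Tox RV cells, 2 of 10 members, against 2.55% of all genes that were lower at this threshold. Over all genes this threshold gave 152 higher and 360 lower genes, a split that became 260 and 205 when library totals replaced TMM scaling. DESeq2, the tool of the study, gave 22 of 18183 genes at an adjusted p-value below 0.05 (0.121%, and 0.0605% for lower genes), and *Il12rb2* was the one member among them. Counted without a test, 8 of 10 members had a log2 fold change below 0, against 49.6% of all genes, and the median over the members was -0.37 against 0.0036. In CPM, the Tox RV values were both below the EV RV values in 4 members (*Il12rb2*, *Il18r1*, *Eomes* and *Hlx*), against 17.4% of all genes, and above both in 0, against 18.6%. Leaving out EV RV replicate 1 again gave 8 members below 0, with a median of -0.40, and at the unadjusted threshold the lower members were then *Il12rb2*, *Stat4*, *Tbx21* and *Eomes*, against 4.20% of all genes. Leaving out EV RV replicate 2 gave 7 members below 0, and the lower members at that threshold were *Il12rb2*, *Il18r1*, *Il18rap* and *Runx3*, against 14.9% of all genes, with *Ifng* higher. *Il12rb2* was thus the member below this threshold whichever EV RV library was left out. As these are bulk libraries, fewer cells that express a gene and less RNA per cell cannot be told apart.

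*Il12rb2* encodes IL-12Rβ2, the chain that docks STAT4, and its gene spans bases 67291318 to 67376188 of chromosome 6 (mm10, minus strand). It measured 442 then 247 CPM with EV RV against 150 then 113 CPM with Tox RV. All 4 values were backed by at least 5841 counts, and the groups did not overlap. The log2 fold change was -1.39 (95% interval -2.18 to -0.59, edgeR quasi-likelihood adjusted p = 0.897, DESeq2 adjusted p = 0.0111), and *Il12rb2* was the 44th gene of 14143 by unadjusted p-value. It was also the only member with a change above 2-fold, against 2.54% of all genes that were lower by this much. The study had already reported *Il12rb2* as downregulated from these same libraries. Counts of members that include it are therefore not independent of that report. Leaving out EV RV replicate 1 gave a log2 fold change of -0.92 (edgeR quasi-likelihood adjusted p = 0.388), and leaving out EV RV replicate 2 gave -1.74 (edgeR quasi-likelihood adjusted p = 0.0307). In the latter fit 600 of 14408 genes (4.16%) passed the adjusted threshold. Without Tox RV replicate 1 or Tox RV replicate 2 the edgeR quasi-likelihood adjusted p was 0.314 or 1.00. The share of *Rn45s* had the same order of libraries, from 24.7% then 11.97% with EV RV to 10.3% then 7.14% with Tox RV, and its part in the result was not tested. When *Rn45s* was left out before scaling, the log2 fold change of *Il12rb2* was -1.40.

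The 3′ end of *Il12rb2* overlaps *Serbp1*, an mRNA-binding protein gene on the other strand. In GENCODE M21 the transcript matched to the quantified *Il12rb2* accession has 2998 exon bases, and 819 of them are shared with transcripts matched to the quantified *Serbp1* accessions. Without strand, reads in this stretch could be divided between both genes. *Serbp1* measured 401 then 671 CPM with EV RV against 767 then 753 CPM with Tox RV, so its order of libraries ran opposite to that of *Il12rb2* except within Tox RV. Its log2 fold change was 0.50 (95% interval -0.16 to 1.16, edgeR quasi-likelihood adjusted p = 0.897), and it was 0.17 without EV RV replicate 1. No other member shared exon bases with a gene in the deposited tables. GENCODE also places *Gm28177* over 1033 exon bases of *Stat4*, *Gm49751* over 336 of *Ifng* and, on the other strand, *Gm33460* over 118 of *Eomes*, and these 3 were not quantified there. Apart from such overlaps,  no near-identical copy was found for any member.

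*Il12rb1* (chromosome 8, 70808449 to 70821424), which pairs with IL-12Rβ2 and also serves the IL-23 receptor, did not follow *Il12rb2*. It measured 171 then 214 CPM with EV RV against 234 then 200 CPM with Tox RV. The groups overlapped, and the log2 fold change was 0.17 (95% interval -0.31 to 0.65, edgeR quasi-likelihood adjusted p = 0.902), an interval that leaves out any 2-fold change. Fits that each lacked 1 library gave 0.011, without EV RV replicate 1, to 0.35, without EV RV replicate 2. *Il23r*, the gene next to *Il12rb2* on chromosome 6 and the other partner of *Il12rb1*, was listed at no more than 0.158 CPM in any library and was not tested.

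*Il18r1* encodes the IL-18-binding chain IL-18Rα, and *Il18rap* its accessory chain. They lie 14.5 kb apart on chromosome 1, *Il18r1* from 40465552 to 40500854 and *Il18rap* from 40515362 to 40551705. *Il18r1* measured 30.7 then 17.7 CPM with EV RV against 14.5 then 12.9 CPM with Tox RV. EV RV replicate 1 was the high library, and the other 3 lay close together with the Tox RV libraries lowest. The log2 fold change of *Il18r1* was -0.82 (95% interval -1.55 to -0.093, edgeR quasi-likelihood adjusted p = 0.897, DESeq2 adjusted p = 0.928). The fit lacking EV RV replicate 1 gave -0.38 (edgeR quasi-likelihood adjusted p = 0.685), and the fit lacking EV RV replicate 2, in which 4.16% of all genes passed, gave -1.16 (edgeR quasi-likelihood adjusted p = 0.0342).

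*Il18rap* measured 45.2 then 31.6 CPM with EV RV against 34.4 then 28.04 CPM with Tox RV. Here the groups overlapped, since Tox RV replicate 1 lay above EV RV replicate 2, and the log2 fold change was -0.30 (95% interval -0.89 to 0.29, edgeR quasi-likelihood adjusted p = 0.897). The fit lacking EV RV replicate 1 gave -0.024. The nearest gene on the other side of *Il18r1*, *Il1rl1*, which encodes the IL-33 receptor ST2, measured 3.65 then 2.69 CPM with EV RV against 3.16 then 2.62 CPM with Tox RV, with overlapping groups. *Il18r1* was also quantified from 3 annotated transcripts. Their mean length weighted by level was 3307 then 3129 bases with EV RV against 3179 then 3300 bases with Tox RV, so the mix of transcripts varied within each group and the groups overlapped.

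*Stat4* (chromosome 1, 51987148 to 52107189), the transcription factor activated by the IL-12 receptor, measured 172 then 232 CPM with EV RV against 135 then 181 CPM with Tox RV. The groups overlapped in CPM, with the second replicate higher in each. They did not overlap in TPM, at 101 then 130 TPM with EV RV against 73.3 then 98.2 TPM with Tox RV. The log2 fold change was -0.36 (95% interval -0.94 to 0.23, edgeR quasi-likelihood adjusted p = 0.897) and ran from -0.58 to -0.12 over the fits that each lacked 1 library, with -0.56 without EV RV replicate 1.

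The lineage factors did not share a pattern. *Tbx21* (chromosome 11, 97098071 to 97115331), which encodes T-bet, measured 98.1 then 144 CPM with EV RV against 116 then 111 CPM with Tox RV. Both Tox RV libraries thus fell inside the EV RV range, and the log2 fold change was -0.094 (95% interval -0.65 to 0.46, edgeR quasi-likelihood adjusted p = 0.944). Its sign depended on the library, with 0.21 without EV RV replicate 2 and -0.35 without EV RV replicate 1, and on scaling, with 0.010 when library totals were used.

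*Eomes* (chromosome 9, 118478212 to 118486132), the T-box factor more typical of CD8 T and NK cells, measured 79.8 then 109 CPM with EV RV against 72.2 then 71.2 CPM with Tox RV. The Tox RV libraries were the lower pair and nearly equal. The log2 fold change was -0.39 (95% interval -0.90 to 0.11, edgeR quasi-likelihood adjusted p = 0.897), and -0.61 without EV RV replicate 1. The 7 markers of NK cells and innate lymphoid cells summed to 52.5 then 13.05 CPM with EV RV against 28.4 then 7.11 CPM with Tox RV, and were lower in replicate 2 of each group. Of these 7 markers 4 were tested and all 4 had a log2 fold change below 0, against 49.6% of all genes. They included *Klrk1* (-1.09), which became 0.068 without EV RV replicate 1. They also included *Fcgr3* (-1.55), which rested on only 12 then 28 counts with EV RV and 9 then 4 with Tox RV. In the fit lacking EV RV replicate 1, 3 of the 4 markers had a log2 fold change above 0. Their part in the values of *Eomes* was not tested. The B cell markers stayed at 2.06 to 2.35 CPM in sum, with *Ms4a1* at 0, and the myeloid markers at 4.03 to 5.61 CPM. Of the 4 markers of gamma-delta T cells only *Sox13* was analysed here, and it stayed at or below 0.174 CPM.

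*Runx3* (chromosome 4, 135120652 to 135177990), which cooperates with T-bet on *Ifng* and represses *Il4* in Th1 cells, measured 131 then 49.8 CPM with EV RV against 64.3 then 52.4 CPM with Tox RV. A single library set the difference, since EV RV replicate 1 was high and the other 3 lay between 49.8 and 64.3 CPM. The log2 fold change was -0.63 (95% interval -1.72 to 0.46, edgeR quasi-likelihood adjusted p = 0.897) with all libraries, 0.22 without EV RV replicate 1 (edgeR quasi-likelihood adjusted p = 0.851) and -1.16 without EV RV replicate 2 (edgeR quasi-likelihood adjusted p = 0.0354, again with 4.16% of all genes past the threshold). *Hlx* (chromosome 1, 184727140 to 184732619) had 28 then 53 counts with EV RV and 34 then 26 counts with Tox RV, equal to 0.664, 0.696, 0.537 and 0.501 CPM in that order. Both Tox RV libraries were lower, but with an interval of the log2 fold change from -1.40 to 0.63 a difference was not detectable at this depth.

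*Ifng* (chromosome 10, 118441046 to 118445892), the signature cytokine of Th1 cells, varied more within each group than any other member. It measured 10.9 then 107 CPM with EV RV against 96.0 then 47.4 CPM with Tox RV, from 460, 8115, 6074 and 2461 counts. EV RV replicate 1 was the low library, and EV RV replicate 2 was the highest of all 4. The log2 difference between EV RV replicates was -3.29 and that between Tox RV replicates 1.02, and a difference above 2-fold between replicates was seen for 11.2% of all genes with EV RV and 4.04% with Tox RV. The log2 fold change of *Ifng* was 0.29 (95% interval -2.05 to 2.62, edgeR quasi-likelihood adjusted p = 0.959). It was -0.58 without EV RV replicate 1 (edgeR quasi-likelihood adjusted p = 0.808), 2.72 without EV RV replicate 2 (edgeR quasi-likelihood adjusted p = 0.0474, where 4.16% of all genes passed) and -0.32 without Tox RV replicate 1. The direction of *Ifng* thus depended on which library was left out.

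**Figure D2:**
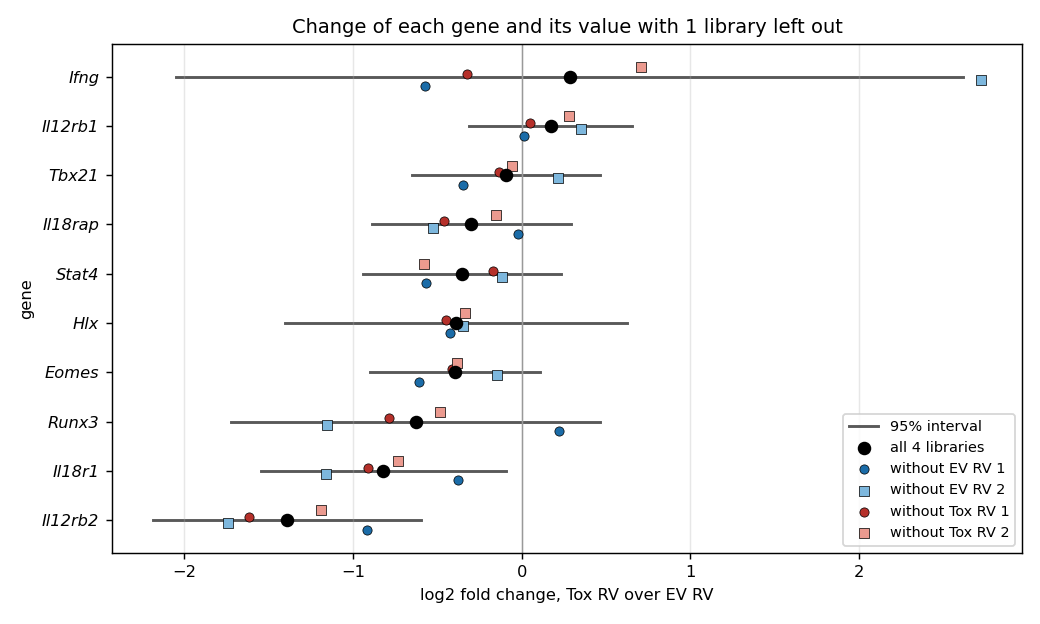
Log2 fold change of Tox RV over EV RV for each of the 10 genes, from edgeR. Black points are the fit with all 4 libraries, bars its 95% interval, and coloured points the fit with 1 library left out. *Il12rb2*, *Il18r1*, *Il18rap*, *Stat4*, *Eomes* and *Hlx* stay below 0 in each fit, and *Il12rb1* stays above 0. *Ifng* moves from -0.58 to 2.72, *Runx3* changes sign without EV RV replicate 1 and *Tbx21* without EV RV replicate 2.

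Ratios of related genes within a library do not depend on how libraries are scaled, and 6 of them were compared. The TPM ratio of *Il12rb2* to *Il12rb1* came to 2.51 then 1.12 with EV RV against 0.626 then 0.548 with Tox RV. The signalling chain thus exceeded its partner in both EV RV libraries and lay below it in both Tox RV libraries. The mean log2 ratio differed by -1.52 (pooled SD between replicates 0.59, n = 2 each), and by -0.94 when EV RV replicate 1 was left out. In a two-sided exact permutation test p was 0.333, the smallest value that 2 against 2 libraries can give, so no ratio could pass 0.05.

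The ratio of *Il18rap* to *Il18r1* came to 0.982 then 1.12 with EV RV against 1.52 then 1.44 with Tox RV. This was a difference of 0.50 in log2 ratio against a pooled SD of 0.10 (n = 2 each, exact permutation p = 0.333), and 0.40 to 0.59 with 1 library left out. The accessory chain exceeded the binding chain in both Tox RV libraries, and the pair was close to even in the EV RV libraries. The ratio of *Eomes* to *Tbx21* came to 0.547 then 0.508 with EV RV against 0.418 then 0.432 with Tox RV, a difference of -0.31 in log2 ratio against a pooled SD of 0.058 (n = 2 each, exact permutation p = 0.333). *Tbx21* thus exceeded *Eomes* in every library. For these 3 ratios the groups did not overlap, and for the ratios *Ifng* to *Tbx21*, *Stat4* to *Stat6* and *Runx3* to *Runx1* they did. *Ifng* to *Tbx21* ranged from 0.252 in EV RV replicate 1 to 1.88 in Tox RV replicate 1. The difference in log2 ratio of each of these 3 changed sign with the library left out, from 1.05 to -0.32 for *Ifng* to *Tbx21* and from -0.21 to 0.46 for *Runx3* to *Runx1* without EV RV replicate 1, and from -0.32 to 0.15 for *Stat4* to *Stat6* without EV RV replicate 2. The exact permutation p-values of the latter 3 were 0.667, 0.667 and 1 (n = 2 each), and none of the 6 passes an adjustment over the family.

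**Figure D3:**
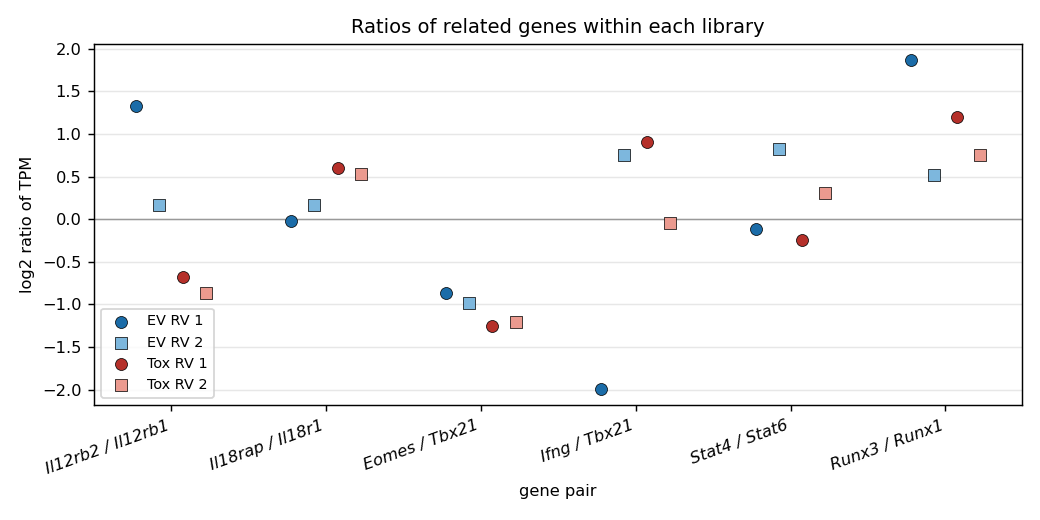
Log2 ratio of the TPM values of 2 related genes in each library, for 6 pairs. The groups are apart for *Il12rb2* over *Il12rb1*, *Il18rap* over *Il18r1* and *Eomes* over *Tbx21*, and overlap for the other 3 pairs.

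Further genes of these pathways were looked at in lists. Of 10 genes of the IL-12 cytokine family and its signalling, 7 were tested, 3 higher and 4 lower, with a median log2 fold change of -0.14. *Jak2*, a kinase bound to IL-12Rβ2, was the most abundant of them at 151 to 178 TPM, with overlapping groups. *Ebi3*, a subunit of IL-27 and IL-35, was the 1 gene of 7 that was lower at an unadjusted p-value below 0.05, against 2.55% of all genes. It measured 12.04 then 8.58 CPM in EV RV against 6.99 then 6.25 CPM in Tox RV (log2 fold change -0.64, standard error 0.25, edgeR quasi-likelihood adjusted p = 0.897). In the fit lacking EV RV replicate 1 *Ebi3* had -0.38 and the list a median of -0.0046. Of 13 genes of the IL-18 and IL-1 receptor family and its signalling, 12 were tested, 5 higher and 7 lower, with a median of -0.14 and none at an unadjusted p-value below 0.05. *Irak1*, a kinase downstream of these receptors, was the most abundant at 46.3 to 66.5 TPM, and *Il18* itself was at 0.664 CPM or less. The median of this second list was 0.097 when EV RV replicate 1 was left out, with 8 higher and 4 lower.

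Genes of IFN-γ receptor signalling and its early targets lay mostly on 1 side. Of 13 genes, all tested, 1 was higher and 12 were lower with Tox RV, against 49.6% of all genes that were lower. Their median log2 fold change was -0.23 against 0.0036 over all genes. In edgeR and in DESeq2 0 passed an adjusted p-value of 0.05. At an unadjusted p-value below 0.05, 5 were lower in edgeR, against 2.55% of all genes, and 3 in DESeq2, against 2.48%. In 7 of the 13 the Tox RV values were both below the EV RV values, against 17.4%. Both receptor chains were among the 5. *Ifngr1* measured 336 then 201 CPM with EV RV against 174 then 162 CPM with Tox RV (log2 fold change -0.68, standard error 0.27), and its log2 fold change was -0.27 without EV RV replicate 1. *Ifngr2* measured 26.3 then 27.8 CPM with EV RV against 17.3 then 19.99 CPM with Tox RV (log2 fold change -0.54, standard error 0.18).

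The other 3 were the transcription factor gene *Irf8* (log2 fold change -0.46, standard error 0.16) and the IFN-γ-inducible GTPase genes *Gbp2* (-0.52, standard error 0.20) and *Igtp* (-0.40, standard error 0.16), with non-overlapping groups in each. *Gbp2* measured 1044 then 785 CPM with EV RV against 637 then 641 CPM with Tox RV, and its log2 fold change was -0.30 without EV RV replicate 1. *Igtp*, the most abundant of the list by mean TPM, measured 633 then 624 TPM with EV RV against 434 then 468 TPM with Tox RV. The edgeR quasi-likelihood adjusted p-value of all 5 was 0.897. Leaving out EV RV replicate 1 gave 9 lower and 4 higher genes, a median of -0.15, and at an unadjusted p-value below 0.05 5 lower genes, against 4.20% of all genes in that fit, and 1 higher, against 3.28%. *Ifngr1* was not among those 5. No gene of the list passed the unadjusted threshold when either Tox RV library was left out. With library totals, where the median of all genes moved to 0.12, 12 of the 13 were still lower but 0 passed the unadjusted threshold. *Ifng* was lowest in EV RV replicate 1, in which *Gbp2* and *Ifngr1* were highest, but other genes of the list went both ways. With EV RV *Irf8* measured 312 then 347 CPM and *Ifngr2* 26.3 then 27.8 CPM, both higher in replicate 2.

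Effector genes associated with T-bet lay on both sides of 0. Of 20 genes, 19 were tested, 11 higher and 8 lower, and their median log2 fold change was 0.25. Of these 6 were higher at an unadjusted p-value below 0.05, against 1.07% of all genes, and 0 were lower. In edgeR 0 passed an adjusted p-value of 0.05, and in DESeq2 3 did, against 0.121% of all genes. These 3 were *Xcl1*, *Ccl3* and *Ccl4*. The 6 were the chemokine genes *Xcl1* (log2 fold change 2.56, standard error 0.41), *Ccl3* (2.04, 0.61) and *Ccl4* (2.02, 0.54), which the study itself picked from these libraries, together with *Nkg7* (0.87, 0.20), *Id2* (0.85, 0.34) and *Lta* (0.77, 0.22). *Ccl3* and *Ccl4* were highest in Tox RV replicate 1, at 67.3 and 60.0 CPM against 20.3 and 19.2 CPM in Tox RV replicate 2. Without Tox RV replicate 1 their log2 fold changes were 0.92 and 0.97 (edgeR quasi-likelihood adjusted p = 1.00 each), and that of *Xcl1* was 1.99. *Nkg7*, a cytotoxic granule protein gene, measured 63.8 then 77.3 CPM with EV RV against 141 then 116 CPM with Tox RV. *Lta*, which encodes lymphotoxin-α, measured 50.2 then 50.8 CPM with EV RV against 101 then 71.5 CPM with Tox RV. *Cxcr3*, a direct T-bet target that marks Th1 cells, measured 40.8 then 21.1 CPM with EV RV against 19.4 then 28.7 CPM with Tox RV, with overlapping groups. *Gzmb*, which encodes granzyme B and was the most abundant of the list by mean TPM, measured 433 then 1526 TPM with EV RV against 1152 then 675 TPM with Tox RV. When EV RV replicate 1 was left out, *Xcl1*, *Ccl4*, *Nkg7* and *Lta* were higher at the unadjusted threshold, 4 genes of the list against 3.28% of all genes in that fit, and *Id2* had a log2 fold change of 0.46.

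Among the relatives of the transcription factors, all 7 STAT genes were tested, 1 higher and 6 lower, with a median log2 fold change of -0.27. *Stat2* was the 1 STAT gene lower at an unadjusted p-value below 0.05, against 2.55% of all genes. It measured 95.8 then 69.4 CPM in EV RV against 49.5 then 48.4 CPM in Tox RV (log2 fold change -0.76, standard error 0.21, edgeR quasi-likelihood adjusted p = 0.897). Without EV RV replicate 1 its log2 fold change was -0.51. Of the RUNX genes and their partner *Cbfb*, all 4 were tested, 3 lower and *Cbfb* higher (0.40, and 0.14 without EV RV replicate 1), with a median of -0.44 that became 0.13 without EV RV replicate 1. Of 17 T-box genes, 6 had enough counts, 2 higher and 4 lower, with a median of -0.24 that became -0.42 without EV RV replicate 1 and 0.0088 without EV RV replicate 2, and *Tbx21* was the most abundant by mean TPM.

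**Figure D4:**
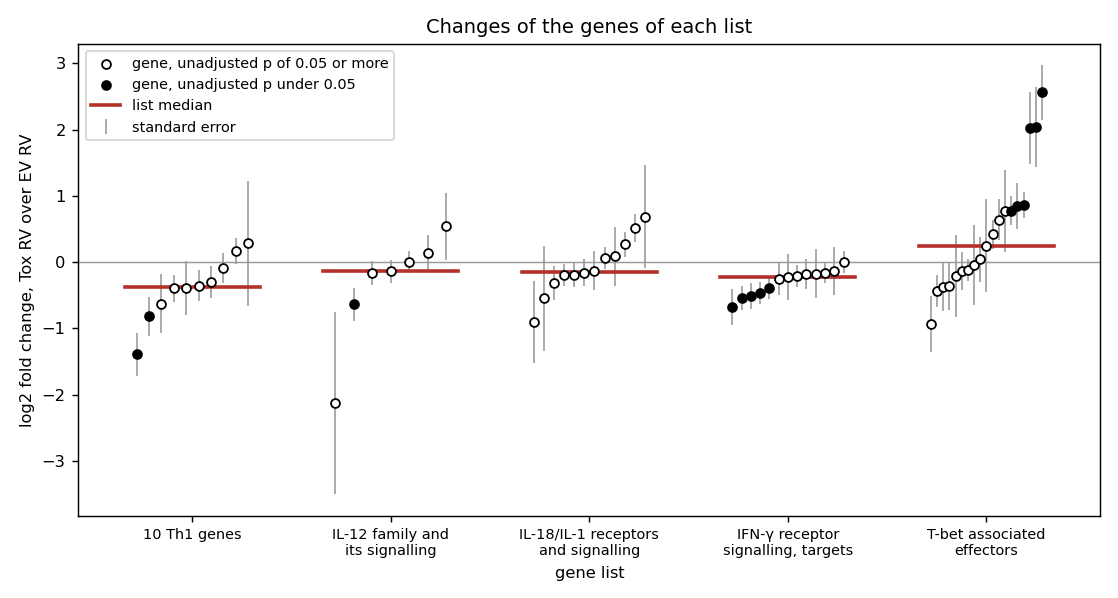
Log2 fold change of Tox RV over EV RV for each tested gene of the member list and of 4 related lists, with bars for the standard error from edgeR, filled points for an unadjusted p-value below 0.05 and a red line at each list's median. The IFN-γ list lies below 0 but for 1 gene (median -0.23), and the T-bet associated effectors spread from *Ccl5* (-0.93, and -0.22 without EV RV replicate 1) to *Xcl1* (2.56).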

How the data were processed

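RNA-seq was analysed from 4 libraries, 2 per group. The authors aligned reads with bowtie to mm10 transcripts and quantified genes with RSEM, without pooling replicates, and whether strand was used in counting is not given in the sources used here. Expected counts, as deposited, are not normalized and estimate how many fragments came from each gene. TPM, as the authors deposited it, is scaled to 1000000 transcripts in each library. FPKM values and a table of the whole series were not used here.

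Expected counts were rounded, filtered with filterByExpr (minimum count 10), scaled by TMM and tested in R 4.3.3 with edgeR 4.0.16 (glmQLFit and glmQLFTest, no replicate block). Benjamini-Hochberg adjustment covered all 14143 genes tested. Standard errors came from the fold change and the F statistic, and 95% intervals from these and the total degrees of freedom. The spread beside a mean is the SD of 2 libraries. DESeq2 1.42.0, limma 3.58.1 on log2(TPM + 1) and log2(TPM + 0.1), other scalings, no filter, a replicate block and leaving out each library were alternatives. In simulated data for this comparison, edgeR recovered 32% of 100 genes changed 2-fold and 97% of 100 changed 4-fold, with 14 false calls among 13991 genes. DESeq2 recovered 51% and 99% of them, with 32 false calls among 12772 genes. In the real libraries edgeR called 0 of 14143 genes. Even *Tox*, with a log2 fold change of 3.68, had an edgeR quasi-likelihood adjusted p of 0.490. The simulated rates therefore cannot be taken as those of the real libraries.

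The members and lists were chosen with earlier results of these data known. Named were all members, list genes at an unadjusted p-value below 0.05 or changed more than 2-fold at a mean of at least 1 CPM, the most abundant gene of a list, overlapping genes and the 3 genes closest in pattern to *Il12rb2* and to *Ifng*. *Il18*, *Cxcr3*, *Ccl5*, *Gata3*, *Il4*, *Il5*, *Il23r*, *Il1rl1*, *Klrd1* and *Sox13* were added with their values known. One gene that the rule would name is not reported here. Positions and overlaps came from GENCODE M21 (GRCm38), near-identical copies from blastn 2.17.0 and promoters from RefSeq on GRCm38.p6.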

Additional observations from a re-analysis of the deposited data

How the results depend on the processing

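The count of genes past an adjusted p-value of 0.05, 0 in the quasi-likelihood test, became 22 in DESeq2, 22 without the low-count filter and 16 with a replicate block, and 1 to 600 with each library left out, the 600 without EV RV replicate 2. Over the 10 members it became 1 in each of the first 3 (*Il12rb2*) and 0 to 4 with each library left out, the 4 being *Il12rb2*, *Il18r1*, *Runx3* and *Ifng* without EV RV replicate 2. Over the related lists it became 3 in DESeq2, 3 without the filter, 1 with the block (*Xcl1*, but not *Ccl3* or *Ccl4*) and 0 to 10 with each library left out, the 10 again without EV RV replicate 2. The share of all genes past this threshold was 0.121% in DESeq2, 0.114% without the filter and 0.113% with the block. In the fits with a library left out, the group with 1 library is assumed to vary like the other. The cause of the changes in these counts was not tested. Signs changed for *Tbx21* with library totals (0.010) and in fits lacking 1 library (-0.35 to 0.21), and in the latter fits for *Ifng* (-0.58 to 2.72), *Runx3* (-1.16 to 0.22) and *Klrk1*, an NK receptor gene (-2.28 to 0.068). Of 120 values of the members under the alternatives, 108 kept direction and side of the threshold, and so did 197 of 216 values of 18 named list genes. As 0 genes passed in the main fit, keeping the side only meant not passing. Several alternatives also differ little from the main fit, so these counts do not measure how firm a result is. Of the 6 ratios, *Ifng* to *Tbx21* (-0.32 to 2.42), *Stat4* to *Stat6* (-0.80 to 0.15) and *Runx3* to *Runx1* (-0.89 to 0.46) changed sign with 1 library left out. Library totals moved the median of all genes by 0.12, and relative to it the median of the members was -0.38. The median of the T-box list changed sign without EV RV replicate 2 and those of the IL-18 and RUNX lists without EV RV replicate 1. The replicate numbers are not known to mark a shared mouse, and same-numbered libraries deviated together with r = 0.30 across 14143 genes, which are not independent replicates. With 2 libraries per group, a 2-fold change was often missed in simulated data.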

Other observations

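The genes whose pattern over the 4 libraries was closest to that of *Il12rb2*, by the distance of centred log2 CPM among 8504 genes at a mean of at least 10 CPM, were *Ssh1* (a cofilin phosphatase gene, distance 0.36), *Rn45s* (0.37) and *Arc* (0.38). *Ssh1* measured 25.9 then 11.9 CPM with EV RV against 8.96 then 7.75 CPM with Tox RV. The genes closest to *Ifng* were the Th2 cytokine gene *Il13* (0.73), the inhibitory receptor gene *Havcr2* (0.95) and *Crabp2* (1.14). *Il13* measured 10.5 then 82.3 CPM with EV RV against 107 then 73.7 CPM with Tox RV, so the library in which the Th1 cytokine was lowest was also the lowest for this Th2 cytokine. *Il4* measured 1.68 then 38.1 CPM with EV RV against 14.4 then 16.8 CPM with Tox RV, and *Il5* measured 0.711, 15.4, 4.84 and 6.07 CPM in the same order.

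Of the 7 Th2 counterparts, which also include *Gata3*, *Ccr4*, *Maf* and *Il4ra* (the most abundant by mean TPM), 2 were higher and 5 lower with Tox RV, their median log2 fold change was -0.20, and 0 had an unadjusted p-value below 0.05. The median was -0.45 without EV RV replicate 1, 0.51 without EV RV replicate 2, 0.37 with a replicate block and 0.25 to 0.28 in limma, so its sign depended on the processing. *Gata3*, the Th2 lineage factor, measured 142 then 103 CPM with EV RV against 92.3 then 82.1 CPM with Tox RV, for which the log2 fold change was -0.49 (SE 0.21, edgeR quasi-likelihood adjusted p = 0.897), and -0.25 without EV RV replicate 1.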
